A study of Mus musculus with 61 samples.

Results

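The comparison set skeletal muscle of 129 against skeletal muscle of B6, 2 of the 8 inbred strains that found the Diversity Outbred mouse population. It used every library titled 129 or B6, 8 of each, or 16 of the 61 muscle libraries of the series. The other strains were AJ, Cast, NOD, NZO, PWK and WSB. Mice of all strains ate a high-fat, high-sugar diet, labelled as 45 percent fat, so neither strain served as an untreated control. The labels named no substrain, sex, age, muscle or number of animals for the 129 and B6 libraries, so p-values measure the spread between libraries, part of which may be technical. The deposited counts were made on GRCm38, a genome build that derives from B6, and whether 129 reads mapped to it as well as B6 reads was not tested.

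B6 and 129 are the strains behind much of mouse genetics: most knockout mice were made in 129 embryonic stem cells and then bred onto B6. They carry different alleles of many genes, among them some of mitochondrial redox balance and of innate immunity. Skeletal muscle takes up most of the glucose cleared under insulin and burns fuel in its mitochondria, and its fast and slow fibres use different myosins. Interferons switch on antiviral genes through a short DNA element, the interferon-stimulated response element, which the STAT and IRF transcription factors bind.

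The 16 libraries held 19.2 to 46.1 M estimated counts each (median 31.1 M). All 10 markers of skeletal muscle were measured, and 0 of them were called different between 129 and B6, against 17.1% of all genes tested. Xist, a transcript of the inactive X chromosome, was high in 4 libraries of each strain, and the Y-linked Ddx3y was high in the other 4, so both strains had the same split. 3 B6 libraries stood apart. In B6_5, 46.3% of the counts fell on the ribosomal RNA gene Rn18s-rs5, against 1.49% to 9.11% in the other 15. B6_1 and B6_6 held summed levels of 11 lymphocyte markers of 177.6 and 72.6 CPM (counts scaled to a common library total), against 2.45 to 7.82 CPM in the other 14 libraries. The 10 skeletal muscle markers summed to 234562 CPM in B6_5, against 142437 to 179767 CPM in the other B6 libraries and 150888 to 206771 CPM in 129. Counts for a gene list are given with all libraries and, where they move by over 1.5 times, also without B6_1, B6_5 and B6_6, called the 3 outlying B6 libraries. In that reduced fit 5.27% of all genes were called higher and 5.4% lower in 129.

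Of 16682 genes tested, 2849 (17.1%) differed between 129 and B6 at an adjusted p under 0.05 by edgeR's quasi-likelihood F test with Benjamini-Hochberg adjustment, the test behind every adjusted p given here. 1348 genes (8.08%) were higher in 129 and 1501 (9%) were lower. Most differences were small: the median size among the called genes was 0.66 on the log2 scale, 999 genes differed by at least 1 log2 unit, and of those 684 were lower and 315 higher in 129. The median difference over all genes tested was -0.02. The 8 libraries of 129 did not overlap the 8 of B6 for 880 genes (5.28%), 441 with 129 higher (2.64%) and 439 with 129 lower (2.63%). Without B6_5, 2562 genes were called (7.36% higher and 8.02% lower in 129), of which 2398 were called in the same direction with all libraries. Without B6_1 and B6_6 the count was 2183 (6.46% higher, 6.56% lower), and without all 3 it was 1805 (5.27% higher, 5.4% lower).

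**Figure D1:**
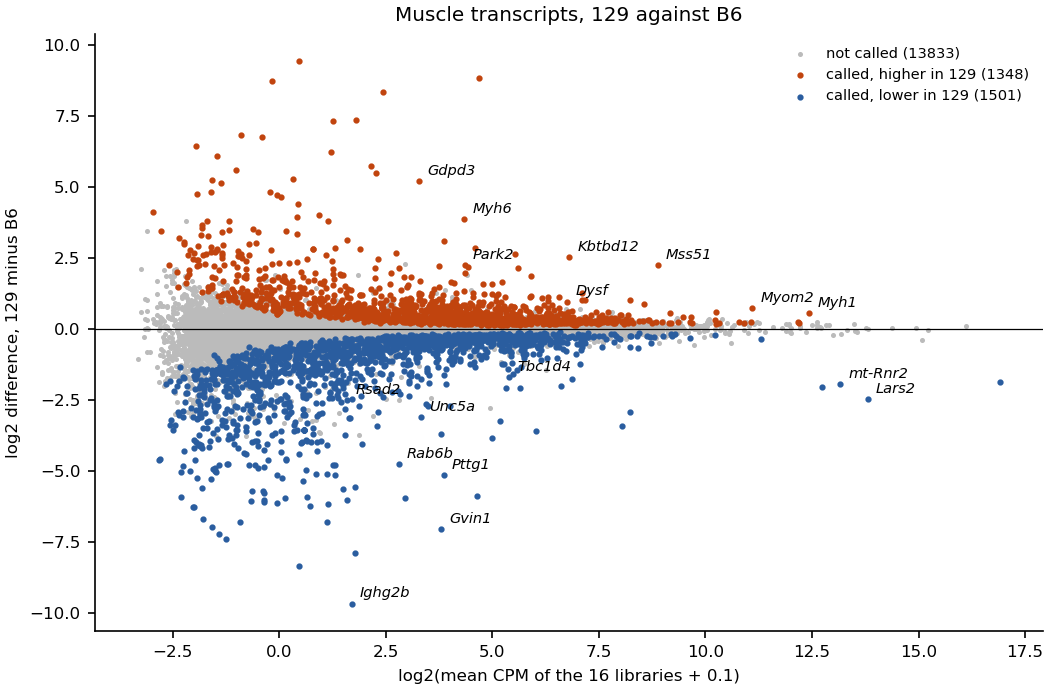
Log2 difference (129 minus B6) of each of the 16682 genes tested against its level, as log2 of the mean CPM of the 16 libraries plus 0.1. Orange points were called higher in 129 (1348 genes) and blue points lower (1501 genes), with the genes of large difference on both sides lying mostly at low levels, except for abundant genes such as Mss51.

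Set among all 8 strains, 129 had the highest strain mean for 429 of the 1348 genes called higher in 129. B6 had the lowest for 422, with 64 in both. Among the 1501 genes called lower, 129 had the lowest strain mean for 507 and B6 the highest for 553, with 125 in both. The other called genes had neither 129 nor B6 at that end of the 8 strains. This is a description of strain means, without a test.

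Among genes with no near-identical copy elsewhere, Gdpd3, an enzyme that cleaves glycerophosphodiesters, was the highest in 129. It had 13.5, 19.3 and 22.1 CPM in 129 (lowest, median and highest of 8), against 0.102, 0.476 and 0.716 CPM in B6. No library of one strain reached those of the other, and the difference was 5.20 ± 0.37 (SE, adjusted p = 1.2e-17) on the log2 scale. The other 6 strains had means of 0.369 to 0.484 CPM, close to B6, so 129 was the one strain with a clear level. Lypd6, a membrane-anchored protein of the Ly6 family, showed a similar order: it lay between 6.09 and 10.8 CPM in 129 (median 8.56), against 0.974 to 2.88 CPM in B6 (median 1.21), a log2 change of 2.47 ± 0.26 (SE, adjusted p = 2.1e-11), and 129 had the highest mean of the 8 strains.

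Other leading genes were high in most strains and low in B6. Kbtbd12, a kelch protein of muscle, had a median of 191 CPM in 129 (range 180 to 207), against 32.8 CPM in B6 (range 27.6 to 36.9). The groups did not overlap, the log2 difference was 2.52 ± 0.09 (SE, adjusted p = 2.4e-31), and the other 6 strains had means of 147 to 191 CPM. Park2, the ubiquitin ligase parkin that marks damaged mitochondria for removal, had a median of 32.9 CPM in 129 (range 31.1 to 38.2), against 6.8 CPM in B6 (range 5.45 to 11.4). Its difference was 2.25 ± 0.10 (SE, adjusted p = 5.7e-26), with B6 the lowest of the 8 strains and 129 the highest. Lmod1, the leiomodin that nucleates actin in smooth muscle, was likewise highest in 129 and lowest in B6, at 2.19 ± 0.17 (SE, adjusted p = 2.5e-16).

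Mss51, a mitochondrial protein of fast muscle fibres in mice, was the most abundant of these. It had 452, 727 and 1152 CPM in 129 (lowest, median and highest of 8), against 86.3, 167 and 211 CPM in B6. Its groups did not overlap either, and the log2 difference was 2.25 ± 0.24 (SE, adjusted p = 8.3e-11). The remaining leading genes with 129 higher were Abhd1, of the alpha/beta hydrolase family, at 3.11 (adjusted p = 7.5e-22), Mettl21e, of a family of protein methyltransferases, at 3.09 (adjusted p = 1.7e-08), Rtkn2 at 2.79 (adjusted p = 1.8e-07), Rbp7, a cellular retinol-binding protein, at 2.68 (adjusted p = 9.2e-13), Tmem37, a relative of calcium channel subunits, at 2.22 (adjusted p = 2.2e-07), and Hddc3, an NADPH phosphatase, at 2.14 (adjusted p = 3.5e-20). For each of these 6 genes the libraries of the strains did not overlap. Abhd1 and Hddc3 overlap other genes on the opposite strand (Preb, and Man2a2 with Gm18310), and whether counting used strand is not given in the sources used here. This limit is wider: 31 of the 148 genes named by the rules below overlap another gene on the opposite strand.

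In the other direction, a few transcripts were present in B6 and nearly absent elsewhere. Pttg1, securin, which holds back chromosome separation until anaphase, had 0.537, 0.836 and 1.04 CPM in 129 (lowest, median and highest of 8), against 23.7, 28.3 and 31.3 CPM in B6. The difference was -5.14 ± 0.24 (SE, adjusted p = 2.9e-25), and the other 6 strains had means of 0.339 to 0.962 CPM. Rab6b, a GTPase of Golgi transport, lay between 0.234 and 0.67 CPM in 129 (median 0.496), against 11.2 to 16.3 CPM in B6 (median 12.8). It differed by -4.75 ± 0.38 (SE, adjusted p = 2.7e-15), and the other strains were at 0.166 to 0.697 CPM. For both genes B6 stood alone among the 8 strains, and 129 was among the low ones.

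Unc5a, a receptor for netrin, had a median of 1.84 CPM in 129 (range 1.31 to 3.58), against 18.4 CPM in B6 (range 15.1 to 19.4). The difference was -3.11 ± 0.17 (SE, adjusted p = 3.7e-22) with no overlap, and B6 had the highest mean of all strains. Nxpe4, of the neurexophilin family, was also highest in B6, with a difference of -2.47 ± 0.23 (SE, adjusted p = 3.8e-13). Retn, the adipocyte hormone resistin, had a median of 1.47 CPM in 129 (range 0.702 to 2.9), against 8.23 CPM in B6 (range 2.42 to 17.1), so its groups overlapped, and the difference was -2.40 ± 0.53 (SE, adjusted p = 5.1e-04). It was the one of 10 white adipocyte markers that was called.

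**Figure D2:**
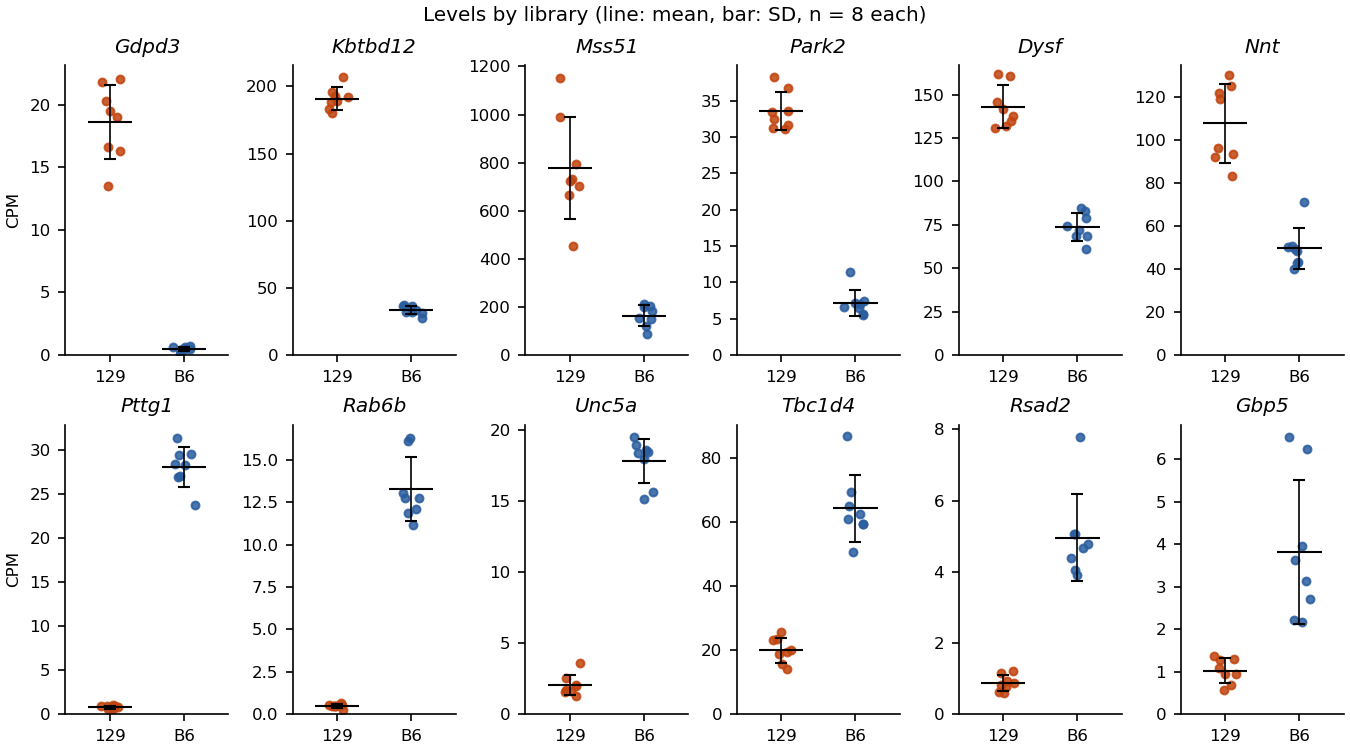
CPM of 12 genes in each of the 8 libraries of 129 (orange, left) and B6 (blue, right). Lines are means and bars are SD (n = 8 each). None of the 12 panels shows overlapping strains, from Gdpd3 (median 19.3 CPM in 129, 0.476 in B6) to Tbc1d4 (median 19.7 CPM in 129, 61.8 in B6).

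Other genes of large negative difference rested on 1 library, B6_5. Rpph1, the RNA of ribonuclease P, had 40.2 CPM in B6_5 and at most 0.878 CPM in the other 15 libraries, and its log2 difference was -3.73 with all libraries and 0.58 without B6_5 (adjusted p = 3.1e-04 and 0.45). For Rmrp, the RNA of ribonuclease MRP, the difference was -2.91 with all libraries and -0.14 without B6_5 (adjusted p = 0.0065 and 0.93). Lars2, the mitochondrial leucyl-tRNA synthetase, had 164394 CPM in B6_5 against 899 to 7083 CPM elsewhere. Its difference was -2.47 with all libraries and 0.07 without B6_5 (adjusted p = 0.0011 and 0.94). The mitochondrial ribosomal RNAs mt-Rnr1 and mt-Rnr2 did the same, with -2.06 with all libraries and -0.09 without B6_5 (adjusted p = 0.0035 and 0.92) for mt-Rnr1 and -1.94 with all libraries and -0.11 without B6_5 (adjusted p = 3.1e-04 and 0.76) for mt-Rnr2. In DESeq2's Wald test, too, Rpph1 and Lars2 were not called. Leaving out this 1 library ended each of these calls.

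The immunoglobulin genes Ighg2b, Ighg2c, Ighd and Igkc were highest in B6_1 and B6_6, the libraries rich in lymphocyte markers, and their calls were lost without them. Ighg2b, a constant region of antibody heavy chains, differed by -9.66 with all libraries and -4.07 without B6_1 and B6_6 (adjusted p = 0.0014 and 0.52). Ighg2c gave -7.89 with all libraries and -3.93 without B6_1 and B6_6 (adjusted p = 6.8e-05 and 0.057), and for this gene all 8 libraries of 129 (0 to 0.0638 CPM) lay below all 8 of B6 (0.173 to 48.1 CPM). Ighd gave -6.03 with all libraries and -1.49 without B6_1 and B6_6 (adjusted p = 0.0023 and 0.64), and the kappa light chain Igkc gave -5.95 with all libraries and -0.18 without B6_1 and B6_6 (adjusted p = 0.0031 and 0.97). Of 11 lymphocyte markers 10 were called lower in 129. Without these libraries 0 were called lower and 1 higher (6.56% and 6.46% of all genes in that fit). The summed level of the markers in the other 6 B6 libraries (4.11 to 6.86 CPM) fell inside that of 129 (2.45 to 7.82 CPM). In bulk muscle, fewer cells of a type and less RNA per cell cannot be told apart.

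Several large differences lay in genes with near-identical copies, between which the estimated counts may be divided. Rnaset2a, a secreted ribonuclease, had 4.27, 7.01 and 8.21 CPM in 129 (lowest, median and highest of 8), against 0, 0 and 0.181 CPM in B6. It differed by 7.36 ± 0.58 (SE, adjusted p = 1.5e-15), but with the counts of its copies added the difference was -0.18 ± 0.09 (SE, adjusted p = 0.19). That sum came mostly from the copies, with means of 55.7 CPM in 129 (SD 6.63) and 63.2 CPM in B6 (SD 10.6). A difference of Rnaset2a alone would lie within this spread. Whether the counts were only divided differently was not tested. Trim12a, of the Trim5 family of antiviral proteins, differed by -5.62 ± 0.53 (SE, adjusted p = 1.0e-12) alone and by -0.76 ± 0.15 (SE, adjusted p = 8.4e-05) with its copies. Gvin1, a very large interferon-inducible GTPase, lay between 0 and 1.37 CPM in 129 (median 0), against 8.32 to 46.1 CPM in B6 (median 25.2). Its difference of -7.05 ± 0.66 (SE, adjusted p = 5.7e-13) became -2.15 ± 0.24 (SE, adjusted p = 2.9e-10) with copies added, lower in 129 by either count. Myh6, the alpha heavy chain of cardiac myosin, lay between 26.1 and 49.8 CPM in 129, against 1.33 to 3.79 CPM in B6, without overlap. It differed by 3.87 ± 0.24 (SE, adjusted p = 1.6e-19) alone and by 0.41 ± 0.26 (SE, adjusted p = 0.31) when summed with its copy Myh7, the slow muscle myosin. The sum holds the level of Myh7 as well, so it does not show the difference of Myh6 alone. Erdr1, a gene near the tip of the sex chromosomes, differed by -2.71 ± 0.28 (SE, adjusted p = 2.2e-11), and its near-identical copy was not used here. The small RNA Rn7s1 was called lower in 129 only with B6_5, at -3.59 with all libraries and -0.78 without B6_5 (adjusted p = 9.2e-06 and 0.09).

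Interferon-stimulated genes had the largest share of calls among the 36 gene lists. Of 27 measured members, 22 were lower in 129 (81.5%, against 9% of all genes tested), 1 was higher and 4 were not called. The median log2 difference was -0.99, against -0.02 over all genes. In 8 of the 27 genes, all 8 libraries of 129 lay below all 8 of B6 (2.63% of all genes tested). B6 had the highest of the 8 strain means for 10 of the 22 lower genes and 129 the lowest for 5. Levels were low throughout: the 27 genes summed to 59.1 to 81.4 CPM in 129, against 81.3 to 169 CPM in B6. B6_1 and B6_6, the libraries rich in lymphocyte markers, had the top sums, at 169 and 122 CPM. Without them 14 of the 27 were called lower (6.56% of all genes in that fit), and without B6_5 as well 11 (5.4%). In the remaining B6 libraries the lymphocyte markers lay within the range of 129, as given above. The part of lymphocytes or other cells in the calls that remained was not tested.

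Rsad2, viperin, an enzyme that makes a chain-terminating nucleotide against viral polymerases, led the group by adjusted p. It had 0.606, 0.849 and 1.22 CPM in 129 (lowest, median and highest of 8), against 3.91, 4.72 and 7.78 CPM in B6. The groups did not overlap, and the difference was -2.49 ± 0.38 (SE, adjusted p = 1.0e-06), while the largest in the list was -3.74. Rsad2 stayed at -2.50 without B6_1 and B6_6 (adjusted p = 4.7e-06). Ifit3, a member of the family that binds viral RNA, lay between 0.562 and 2.07 CPM in 129 (median 1.15), against 2.25 to 5.2 CPM in B6 (median 3.61), with a difference of -1.52 ± 0.26 (SE, adjusted p = 1.2e-05), and of -1.57 ± 0.25 (SE, adjusted p = 2.7e-06) with the counts of its copy Ifit3b added. Oas2, a sensor of double-stranded RNA that makes oligoadenylates, lay between 0.788 and 1.29 CPM in 129 (median 1.03), against 1.85 to 4.77 CPM in B6 (median 2.78), with a difference of -1.49 ± 0.28 (SE, adjusted p = 6.2e-05). Xaf1, a proapoptotic interferon target, was the single member called higher in 129, at 0.57 ± 0.17 (SE, adjusted p = 0.013). All 4 of these calls held in each of the 28 alternative fits that tested them.

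The promoters of the 4 most strongly called members with a promoter entry are shown because each holds the core of the interferon-stimulated response element. Sequences are the 250 bases before the transcription start from RefSeq on GRCm38.p6, 5′ to 3′ on the gene's strand, and capitals mark the core GAAANNGAAA or its reverse complement TTTCNNTTTC.
Rsad2, chr12:26456453-26456702, minus strand: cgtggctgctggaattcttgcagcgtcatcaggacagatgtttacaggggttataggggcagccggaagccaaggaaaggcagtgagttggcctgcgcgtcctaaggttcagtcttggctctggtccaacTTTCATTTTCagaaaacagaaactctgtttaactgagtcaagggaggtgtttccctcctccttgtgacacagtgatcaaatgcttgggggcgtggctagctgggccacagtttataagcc
Ifit3, chr19:34583279-34583528, plus strand: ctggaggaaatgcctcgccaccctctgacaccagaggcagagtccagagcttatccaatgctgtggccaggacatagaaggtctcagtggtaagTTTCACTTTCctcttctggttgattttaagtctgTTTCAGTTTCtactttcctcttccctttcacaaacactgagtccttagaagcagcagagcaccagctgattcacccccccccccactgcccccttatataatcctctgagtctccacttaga
Ifit3b, chr19:34607707-34607956, plus strand: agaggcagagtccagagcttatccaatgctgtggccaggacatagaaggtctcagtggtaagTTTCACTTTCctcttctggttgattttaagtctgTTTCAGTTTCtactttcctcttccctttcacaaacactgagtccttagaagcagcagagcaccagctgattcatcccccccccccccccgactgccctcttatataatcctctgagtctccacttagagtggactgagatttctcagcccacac
Ifit1, chr19:34640639-34640888, plus strand: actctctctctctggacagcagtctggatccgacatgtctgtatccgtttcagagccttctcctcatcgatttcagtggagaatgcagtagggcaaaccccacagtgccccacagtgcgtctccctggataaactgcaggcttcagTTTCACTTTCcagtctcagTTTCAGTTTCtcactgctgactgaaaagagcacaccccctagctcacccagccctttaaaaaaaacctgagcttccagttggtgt
The core began 120 bases before the start in Rsad2, 156 and 122 bases before it in Ifit3, 188 and 154 in Ifit3b, and 104 and 85 in Ifit1. Ifit3b and Ifit1 differed by -1.62 (adjusted p = 1.4e-04) and -1.47 (adjusted p = 1.8e-04) on the log2 scale.

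Over windows of 250 bases before to 50 after the start, on both strands, the core was found in 1131 of 32851 RefSeq promoters (3.44%). Among genes tested here it was found for 434 of 11646 with an entry (3.73%). Of the interferon-stimulated genes with an entry, 12 of 19 had it, and of those called lower 11 of 16. Of the antigen presentation genes with an entry, described below, 3 of 18 had it, and of those called lower 1 of 8. Genes that respond to interferon can carry this element whether or not strains differ, so these shares do not bear on the strain difference. A match is a match of letters and no sign of binding, and the promoter alleles of 129 were not examined.

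The guanylate-binding proteins and immunity-related GTPases, which attack the vacuoles of intracellular pathogens, showed the same direction. Of 19 measured genes 12 were lower in 129 (63.2%, against 9% of all genes) and 1 was higher, with a median of -0.97. Without B6_1 and B6_6 10 were lower (6.56% of all genes in that fit), and without B6_5 as well 10 (5.4%). Gbp5, which also promotes inflammasome assembly, lay between 0.562 and 1.37 CPM in 129 (median 1.02), against 2.17 to 6.53 CPM in B6 (median 3.4). The difference was -1.89 ± 0.32 (SE, adjusted p = 8.8e-06) with no overlap, and 129 was the lowest and B6 the highest of the 8 strains. Gbp3 differed by -1.79 ± 0.29 (SE, adjusted p = 2.3e-06). Gbp2b, another guanylate-binding protein, went the other way: it lay between 1.59 and 3.28 CPM in 129 (median 2.58), against 0 to 0.339 CPM in B6 (median 0.0501), with a difference of 4.38 ± 0.58 (SE, adjusted p = 2.3e-08), and B6 was the lowest of the 8 strains. The response element core was present in the promoters of all 10 members with an entry, 8 of them called lower.

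**Figure D3:**
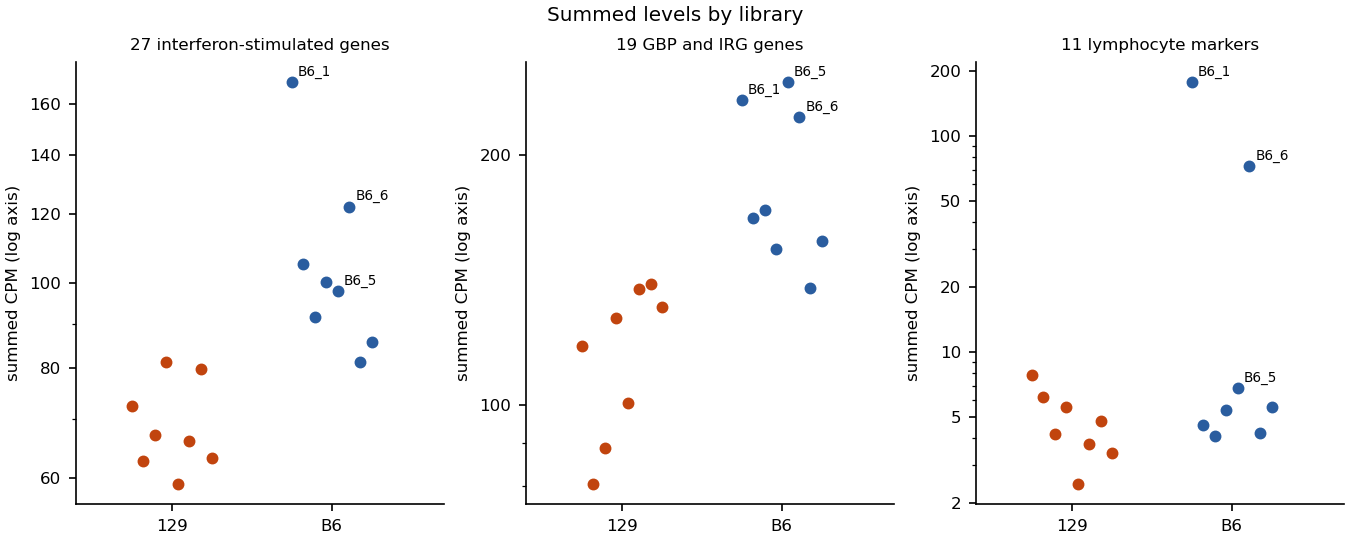
Summed CPM per library, on log axes, of 27 interferon-stimulated genes, 19 guanylate-binding (GBP) and immunity-related GTPase (IRG) genes and 11 lymphocyte markers in the 8 libraries of 129 (orange, left) and the 8 of B6 (blue, right). Lymphocyte markers reached 177.6 and 72.6 CPM in B6_1 and B6_6 and stayed at or below 7.82 CPM in the other 14 libraries, while the interferon-stimulated sums of 129 lay at 59.1 to 81.4 CPM, against 81.3 to 169 CPM in B6.

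Of 25 antigen presentation genes 9 were lower in 129 (36%, against 9% of all genes) and 0 higher, with a median of -0.77. Without B6_1 and B6_6 3 were lower (6.56% of all genes in that fit), and without B6_5 as well 2 (5.4%), a share of the list close to that of all genes. Nlrc5, the transactivator of class I genes, lay between 0.358 and 1.02 CPM in 129 (median 0.691), against 1.63 to 13 CPM in B6 (median 3.7). It differed by -2.82 ± 0.43 (SE, adjusted p = 9.4e-07), and by -2.04 without those libraries (adjusted p = 1.7e-04). 129 had the lowest and B6 the highest Nlrc5 mean of the 8 strains. The class I genes H2-Q7 and H2-Q6 share sequence with near-identical copies and differed by -2.35 ± 0.47 (SE, adjusted p = 1.3e-04) and -2.08 ± 0.45 (SE, adjusted p = 4.6e-04), with values of -2.27 ± 0.44 (SE, adjusted p = 9.3e-05) and -2.18 ± 0.43 (SE, adjusted p = 1.1e-04) when the copies were added. Without B6_1 and B6_6, H2-Q7 and H2-Q6, copies not added, were at -1.49 and -1.34 (adjusted p = 0.017 and 0.033). Without B6_5 as well they were at -1.39 and -1.35 (adjusted p = 0.044 and 0.052), so H2-Q6 lost its call.

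The nuclear genes of oxidative phosphorylation encode subunits of the respiratory chain in the mitochondrial inner membrane. Of 37 complex I genes 14 were higher (37.8%, against 8.08% of all genes) and 0 lower, with a median of 0.18. Of 39 genes of complexes III to V, 14 were higher (35.9%) and 1 lower, with a median of 0.19. The library B6_5 bears on these counts, since it held the lowest of the 8 B6 levels for 37 of the 37 complex I genes and for 35 of the 39 others. This was not particular to these genes. B6_5 was also lowest for 52 of 55 cytosolic ribosomal protein genes, 29 of 31 proteasome genes and 16 of 22 citric acid cycle genes, but for 0 of 19 clock genes. Without it 10 complex I genes and 8 genes of complexes III to V were higher (7.36% of all genes in that fit), and without B6_1 and B6_6 as well 4 and 0 (5.27%), with 0 and 2 lower (5.4%). The summed level of the complex I genes was 4305 to 5322 CPM in 129, against 3974 to 4553 CPM in the 7 other B6 libraries and 3044 CPM in B6_5.

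The 4 complex I genes that stayed called were Ndufb5, Ndufs5, Ndufa12 and Ndufc2, all accessory subunits. Ndufb5 had 193, 205 and 233 CPM in 129 (lowest, median and highest of 8), against 107, 145 and 157 CPM in B6. The strains did not overlap, and the difference was 0.59 ± 0.07 (SE, adjusted p = 4.5e-10). Ndufs5 and Ndufa12 differed by 0.55 ± 0.08 (SE, adjusted p = 5.0e-07) and 0.41 ± 0.06 (SE, adjusted p = 8.9e-07), without overlap, and each has a near-identical copy in the reference. Cox4i1, a subunit of cytochrome c oxidase, lay between 348 and 449 CPM in 129 (median 403), against 233 to 382 CPM in B6 (median 339.9), so its strains overlapped, at 0.28 ± 0.07 (SE, adjusted p = 0.0022). Uqcrfs1, the Rieske protein of complex III, and Atp5b, the catalytic subunit of ATP synthase, differed by 0.26 ± 0.07 (SE, adjusted p = 0.0024) and 0.20 ± 0.05 (SE, adjusted p = 0.0054). These 3 calls were lost without B6_1, B6_5 and B6_6 (adjusted p = 0.092, 0.068 and 0.17). Cox6a2, the muscle form of a cytochrome c oxidase subunit, was the one member lower in 129, at -0.26 ± 0.06 (SE, adjusted p = 0.0017), and held in every fit. The 13 protein-coding genes of the mitochondrial genome gave 0 calls with all libraries and 1, lower in 129, without the 3 outlying B6 libraries, while its ribosomal RNAs mt-Rnr1 and mt-Rnr2 are given above.

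Of the citric acid cycle genes 7 of 22 were higher and 2 lower in 129 (31.8% and 9.09%, against 8.08% and 9% of all genes). Without the 3 outlying B6 libraries 3 and 2 were called (5.27% and 5.4% of all genes). Pdhx, a structural part of pyruvate dehydrogenase, differed by 0.37 ± 0.08 (SE, adjusted p = 4.7e-04), the isocitrate dehydrogenase subunit Idh3b by 0.29 ± 0.06 (SE, adjusted p = 2.1e-04) and the complex II subunit Sdhc by 0.28 ± 0.06 (SE, adjusted p = 6.7e-04). Idh2, the NADP-dependent isocitrate dehydrogenase of mitochondria, was lower in 129: it lay between 166 and 249 CPM in 129 (median 188), against 215 to 352 CPM in B6 (median 261), at -0.45 ± 0.10 (SE, adjusted p = 0.001). Sdha, the flavoprotein of complex II, was also lower, at -0.17 ± 0.06 (SE, adjusted p = 0.028), a call that was lost without 129_1, 129_8, B6_3, B6_4, B6_7 or B6_8 (adjusted p = 0.051 to 0.068).

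Of the mitochondrial redox genes 4 of 17 were higher and 1 lower in 129 (23.5% and 5.88%, against 8.08% and 9% of all genes). Nnt, the transhydrogenase that makes mitochondrial NADPH, had 83, 108 and 130.3 CPM in 129 (lowest, median and highest of 8), against 40, 48.9 and 71.1 CPM in B6. The groups did not overlap, and the difference was 1.12 ± 0.11 (SE, adjusted p = 1.2e-11). A second gene ID named Nnt overlaps it. A deletion of several Nnt exons is known in the B6 substrain J, but the labels name no substrain. The other 6 strains had means of 118 to 188 CPM, above both 129 and B6. Me3, a mitochondrial malic enzyme, differed by 0.55 ± 0.07 (SE, adjusted p = 1.1e-08) and the glutaredoxin Glrx2 by 0.33 ± 0.06 (SE, adjusted p = 6.4e-06). The one lower member was Idh2.

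**Figure D4:**
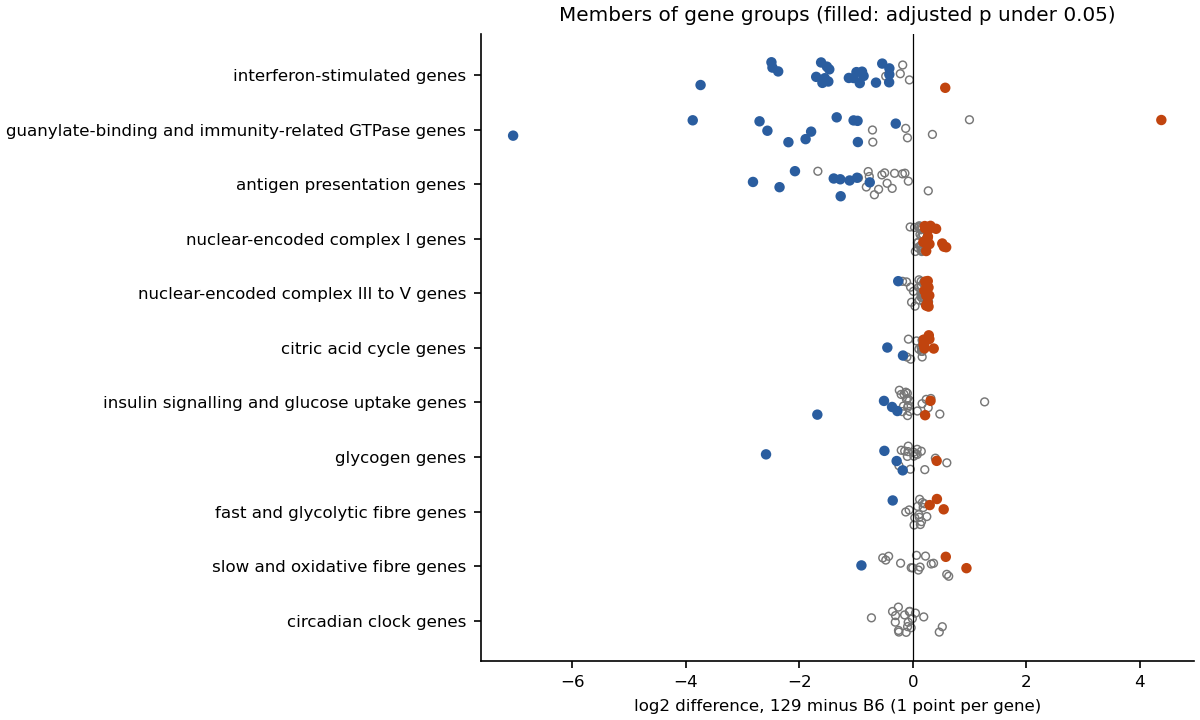
Log2 difference (129 minus B6) of each measured gene in 11 groups, 1 point per gene, with filled points at an adjusted p under 0.05 (orange higher in 129, blue lower) and open points not called. Interferon-stimulated genes lay mostly below 0 (22 lower of 27), complex I genes just above it (14 higher of 37), and the 19 clock genes gave 0 calls.

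Of the insulin signalling and glucose uptake genes 2 of 27 were higher and 4 lower in 129 (7.41% and 14.8%, against 8.08% and 9% of all genes), with a median of -0.09. Without B6_1 and B6_6, with or without B6_5, 0 were higher and 4 lower. The largest difference was in Tbc1d4, also called AS160, a Rab GTPase-activating protein that keeps the glucose transporter GLUT4 inside the cell until Akt phosphorylates it. Tbc1d4 had 14, 19.7 and 25.6 CPM in 129 (lowest, median and highest of 8), against 50.7, 61.8 and 86.9 CPM in B6. The strains did not overlap, and the difference was -1.68 ± 0.17 (SE, adjusted p = 3.9e-12). 129 had the lowest mean of the 8 strains, with the 6 strains other than B6 at 25.6 to 64.2 CPM. B6 had the highest mean but lay close to the next strain, and its median was below 64.2 CPM. Without B6_1, B6_5 and B6_6 the difference was -1.73 (adjusted p = 1.1e-10).

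Akt2, the kinase that acts on Tbc1d4 in muscle, lay between 167 and 195 CPM in 129 (median 177), against 199.7 to 249 CPM in B6 (median 238), at -0.37 ± 0.06 (SE, adjusted p = 3.2e-06). Tsc2, tuberin, a brake on mTOR, lay between 78.1 and 91.6 CPM in 129 (median 84.1), against 93.4 to 116 CPM in B6 (median 100), at -0.27 ± 0.05 (SE, adjusted p = 1.2e-05). For both genes the strains did not overlap. Insr, the insulin receptor, was the 4th lower gene, at -0.51 (adjusted p = 0.0062), and is named after its value was seen. Slc2a4, GLUT4 itself, was higher in 129, at 0.31 ± 0.10 (SE, adjusted p = 0.023), and so was Mtor, at 0.22 ± 0.07 (SE, adjusted p = 0.03). The call of Slc2a4 was lost without 129_6 (adjusted p = 0.062) and without B6_1 and B6_6 together (adjusted p = 0.1), and that of Mtor without 129_6, 129_7, 129_9, B6_1, B6_2, B6_4 or B6_6 (adjusted p = 0.053 to 0.078) and without B6_1 and B6_6 together (adjusted p = 0.12).

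Of the glycogen genes 1 of 21 were higher and 4 lower in 129 (4.76% and 19%, against 8.08% and 9% of all genes), and without the 3 outlying B6 libraries 0 and 4. Ppp1r3e, a subunit that directs protein phosphatase 1 to glycogen, had 0.144, 0.298 and 0.51 CPM in 129 (lowest, median and highest of 8), against 1.19, 1.92 and 2.39 CPM in B6. It was low in both strains, did not overlap, and differed by -2.59 ± 0.30 (SE, adjusted p = 5.4e-10), with the other 6 strains at 0.201 to 0.408 CPM, so B6 was the one strain apart. Pygb, the brain form of glycogen phosphorylase, differed by -0.50 ± 0.14 (SE, adjusted p = 0.0057), a call lost without B6_1 and B6_6 (adjusted p = 0.063). Ppp1r3a, the main glycogen-targeting subunit of muscle, differed by -0.29 ± 0.09 (SE, adjusted p = 0.022), and lost its call without 129_2, 129_4, B6_5 or B6_7 (adjusted p = 0.058 to 0.11). The single higher member was the branching enzyme Gbe1, at 0.42 ± 0.14 (SE, adjusted p = 0.033), which lost its call without 129_3, 129_9, B6_1, B6_2 or B6_5 (adjusted p = 0.055 to 0.073) and without B6_1 and B6_6 together (adjusted p = 0.092).

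Of the glycolysis and lactate genes 1 of 24 were higher and 1 lower in 129 (4.17% and 4.17%, against 8.08% and 9% of all genes). Of the genes of fatty acid uptake and oxidation 1 of 30 were higher and 2 lower in 129 (3.33% and 6.67%), of those of fatty acid and triglyceride synthesis 0 of 20 were higher and 1 lower in 129 (0% and 5%), and of those of triglyceride breakdown and lipid droplets 0 of 16 were higher and 0 lower in 129 (0% and 0%). With all libraries each of these shares lay below that of all genes, a difference that was not tested. Without the 3 outlying B6 libraries the counts were 0 and 0, 1 and 3, 0 and 0, and 0 and 0 (5.27% and 5.4% of all genes in that fit). There the 3 of 30 genes of fatty acid uptake and oxidation called lower were a share above that of all genes. Fabp3, the fatty acid-binding protein of heart and muscle, lay between 247 and 468 CPM in 129 (median 317), against 369 to 591 CPM in B6 (median 510.4), at -0.49 ± 0.14 (SE, adjusted p = 0.0099), and at -0.49 ± 0.14 (SE, adjusted p = 0.0095) with its copy added. Acsl6, an acyl-CoA synthetase, was higher in 129, at 0.52 ± 0.14 (SE, adjusted p = 0.0042). Of the regulators and targets around PPAR and PGC-1 2 of 21 were higher and 2 lower in 129 (9.52% and 9.52%), and without the 3 outlying B6 libraries 0 and 1. Esrrg, a nuclear receptor of oxidative muscle, lay between 16 and 31.6 CPM in 129 (median 19.5), against 30 to 45.2 CPM in B6 (median 34.3), at -0.72 ± 0.19 (SE, adjusted p = 0.0033), with B6 the highest of the 8 strains. Rxrg, a retinoid receptor, was higher in 129 without overlap, at 0.67 ± 0.18 (SE, adjusted p = 0.0039), and lost its call without B6_1, B6_5 and B6_6 (adjusted p = 0.077).

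Among genes of the contractile apparatus, Myh1, the heavy chain of fast IIx fibres, had 5468, 6534 and 8089 CPM in 129 (lowest, median and highest of 8), against 3584, 4769 and 5190.4 CPM in B6. The strains did not overlap, and the difference was 0.54 ± 0.11 (SE, adjusted p = 2.7e-04). Myom2, a myomesin that links thick filaments at the M-band, had a median of 2568 CPM in 129 (range 2368 to 3192), against 1671 CPM in B6 (range 1282 to 1986). It differed by 0.74 ± 0.10 (SE, adjusted p = 9.6e-08), with 129 the highest and B6 the lowest of the 8 strains. Mylk2, the kinase of the fast regulatory light chain, differed by 0.42 ± 0.11 (SE, adjusted p = 0.0033), a call lost without B6_1, B6_5 and B6_6 (adjusted p = 0.076). Tpm2, the beta tropomyosin, was lower in 129, at -0.35 ± 0.10 (SE, adjusted p = 0.0076).

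Of the fast and glycolytic fibre genes 3 of 18 were higher and 1 lower in 129 (16.7% and 5.56%, against 8.08% and 9% of all genes). Of the slow and oxidative fibre genes 2 of 17 were higher and 1 lower in 129 (11.8% and 5.88%). In each list 1 was higher and 1 lower without the 3 outlying B6 libraries. The slow members were Myh7b, an ancient slow myosin, at 0.94 ± 0.21 (SE, adjusted p = 7.5e-04), Fhl1, a LIM protein, at 0.58 ± 0.18 (SE, adjusted p = 0.019), and Casq2, the slow and cardiac calsequestrin, which was lower in 129, at -0.91 ± 0.24 (SE, adjusted p = 0.0051). Fhl1 lost its call without 129_2 (adjusted p = 0.062) and without the 3 outlying B6 libraries (adjusted p = 0.12). Pde4dip, myomegalin, an abundant gene, was also called higher, at 0.19 ± 0.07 (SE, adjusted p = 0.035), and lost its call without 129_2, 129_6, 129_9, B6_1, B6_5 or B6_6 (adjusted p = 0.054 to 0.12) and without B6_1 and B6_6 together (adjusted p = 0.14). Among abundant genes called lower, Ndrg2, a stress-responsive protein, differed by -0.22 ± 0.06 (SE, adjusted p = 0.0043).

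Of the genes of membrane repair and the dystrophin complex 2 of 20 were higher and 2 lower in 129 (10% and 10%, against 8.08% and 9% of all genes), shares close to those of all genes. Without the 3 outlying B6 libraries 1 and 2 were called, and without B6_1 and B6_6 alone 1 and 1. Dysf, dysferlin, which patches torn muscle membranes, had 131, 139.5 and 162 CPM in 129 (lowest, median and highest of 8), against 61, 73.1 and 84.7 CPM in B6. The strains did not overlap, the difference was 0.95 ± 0.09 (SE, adjusted p = 2.5e-12), and 129 had the highest mean of the 8 strains. The lowest was AJ at 13.8 CPM, a strain known for a dysferlin mutation. Ano5, a scramblase that also acts in repair, was lower in 129, at -0.65 ± 0.16 (SE, adjusted p = 0.0022), and the annexin Anxa6 was lower by a smaller amount, at -0.21 ± 0.06 (SE, adjusted p = 0.016), a call lost without B6_1 and B6_6 (adjusted p = 0.065).

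Of the potassium, sodium and chloride channel genes 5 of 20 were higher and 1 lower in 129 (25% and 5%, against 8.08% and 9% of all genes). Without B6_1 and B6_6, with or without B6_5, 2 were higher and 1 lower. Kcng4, a modifier subunit of potassium channels, lay between 26.8 and 60.9 CPM in 129 (median 43.9), against 12.6 to 25.5 CPM in B6 (median 19.2), at 1.24 ± 0.34 (SE, adjusted p = 0.0062), without overlap. Kcnc4, a fast potassium channel, differed by 0.71 ± 0.17 (SE, adjusted p = 0.0012). Scn4b, a sodium channel beta subunit, lay between 239.7 and 329 CPM in 129 (median 255), against 372 to 466 CPM in B6 (median 421). It was lower in 129 without overlap, at -0.66 ± 0.14 (SE, adjusted p = 4.1e-04), and B6 had the highest mean of the 8 strains. Of the genes of calcium release and reuptake 2 of 19 were higher and 0 lower in 129 (10.5% and 0%), and without B6_1 and B6_6 0 and 0.

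Of the collagen and matrix genes 3 of 22 were higher and 0 lower in 129 (13.6% and 0%, against 8.08% and 9% of all genes), and of the tendon markers 3 of 10 were higher and 0 lower in 129 (30% and 0%). Without B6_1 and B6_6 1 and 2 were higher (6.46% of all genes in that fit), and without B6_5 as well 1 and 1 (5.27%). Kera, the tendon and corneal proteoglycan keratocan, lay between 15 and 25.1 CPM in 129 (median 20.1), against 4.48 to 11.4 CPM in B6 (median 6.42), at 1.48 ± 0.30 (SE, adjusted p = 1.9e-04), without overlap. Eln, elastin, differed by 0.69 ± 0.17 (SE, adjusted p = 0.0028). Col1a1 and Col1a2, the chains of type I collagen, differed by 1.01 ± 0.35 (SE, adjusted p = 0.033) and 0.88 ± 0.29 (SE, adjusted p = 0.026), and the tendon membrane protein Tnmd by 0.80 ± 0.26 (SE, adjusted p = 0.028). Col1a1 lay between 304 and 540 CPM in 129, against 176 to 255 CPM in B6. Col1a2 lay between 364 and 632 CPM in 129, against 219 to 332 CPM in B6. Both were without overlap, while the strains overlapped for Tnmd. The call of Col1a1 was lost without 129_1, 129_3, 129_8, B6_1, B6_3, B6_5, B6_6 or B6_8 (log2 difference 0.94 to 1.01, adjusted p = 0.05 to 0.061), that of Col1a2 without 129_8 (adjusted p = 0.051), and that of Tnmd without 129_3, 129_9 or B6_1 (adjusted p = 0.053 to 0.056). All 3 were lost without B6_1 and B6_6 together (adjusted p = 0.081, 0.072 and 0.088), and those of Col1a1 and Col1a2 also with marker sums of hepatocytes, lymphocytes and keratinocytes as covariates (adjusted p = 0.053 and 0.05). The amount of tendon in each sample is not given, and its part in these differences was not tested.

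Of the imprinted growth genes 3 of 15 were higher and 0 lower in 129 (20% and 0%, against 8.08% and 9% of all genes), and without the 3 outlying B6 libraries 2 and 0. Dlk1, a Notch ligand relative expressed from the paternal allele, lay between 1.25 and 2.06 CPM in 129 (median 1.42), against 0.311 to 0.662 CPM in B6 (median 0.426), at 1.68 ± 0.26 (SE, adjusted p = 1.1e-06), with 129 the highest of the 8 strains. Igf2, the fetal growth factor, lay between 23.3 and 42.7 CPM in 129 (median 29.5), against 14.8 to 24 CPM in B6 (median 17.4), at 0.79 ± 0.15 (SE, adjusted p = 3.0e-05), and the maternal noncoding RNA Meg3, from the same locus as Dlk1, differed by 0.47 ± 0.13 (SE, adjusted p = 0.0052), a call lost without B6_1, B6_5 and B6_6 (adjusted p = 0.1). Igf2 and Meg3 overlap other annotated genes.

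Of the heat shock and chaperone genes 5 of 21 were higher and 0 lower in 129 (23.8% and 0%, against 8.08% and 9% of all genes), and without the 3 outlying B6 libraries 3 and 0. The leading calls came from 1 library. In 129_7, Hspa1a and Hspa1b, the inducible Hsp70 genes, had 465 and 502 CPM, against medians of 16.7 and 12.6 CPM over the 8 libraries of 129 and 13.9 and 10.6 CPM over those of B6. Dnajb1, their cochaperone, had 136 CPM there, against medians of 7.95 CPM in 129 and 7.74 CPM in B6. Their differences were 2.12 ± 0.54 (SE, adjusted p = 0.0032), 2.64 ± 0.61 (SE, adjusted p = 0.0011) and 1.66 ± 0.41 (SE, adjusted p = 0.0019), and all 3 calls were lost without 129_7 (adjusted p = 0.58, 0.4 and 0.73).

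Several groups gave few or no calls. The 19 circadian clock genes gave 0 by this test, with a median of -0.09. Of 55 cytosolic ribosomal protein genes 1 was higher and 0 lower, of 31 proteasome genes 1 and 0, and of 23 genes of the unfolded protein and integrated stress responses 1 and 2, against 8.08% and 9% of all genes. Without the 3 outlying B6 libraries the counts were 0 and 1, 0 and 1, and 1 and 1. Nqo1, a quinone reductase and target of NRF2, lay between 11.9 and 17 CPM in 129 (median 14.3), against 14.9 to 23 CPM in B6 (median 16.6). It was lower in 129, at -0.36 ± 0.10 (SE, adjusted p = 0.0063), as was Nfe2l2, which encodes NRF2 itself, at -0.34 ± 0.10 (SE, adjusted p = 0.016); they were the 2 calls among 18 metallothionein, NRF2 and glutathione genes.

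Of 13 genes with alleles known to differ between strains of these names, 3 were higher in 129 and 3 lower (23.1% each, against 8.08% and 9% of all genes), and 7 were not called. The counts were equal without the 3 outlying B6 libraries. Beside Nnt, the higher ones were Ifi202b, a member of the IFI200 family that B6 expresses poorly, which lay between 1.18 and 2.35 CPM in 129 (median 1.69), against 0 to 0.307 CPM in B6 (median 0.0354), at 4.70 ± 0.45 (SE, adjusted p = 9.8e-13), and Wdfy1, a phosphoinositide-binding protein, which lay between 22.5 and 27.5 CPM in 129 (median 26.2), against 6.75 to 12.2 CPM in B6 (median 8.08), at 1.62 ± 0.08 (SE, adjusted p = 6.4e-24). B6 was the lowest of the 8 strains for all 3.

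Casp4, the inflammatory caspase-11 that is inactivated in 129 strains, lay between 0.11 and 0.639 CPM in 129 (median 0.408), against 0.704 to 2.18 CPM in B6 (median 1.44), at -1.86 ± 0.30 (SE, adjusted p = 3.8e-06), and 129 was the lowest of the 8 strains. Naip5, a sensor of bacterial flagellin with near-identical copies, differed by -1.92 ± 0.41 (SE, adjusted p = 3.7e-04) alone and by -1.23 ± 0.40 (SE, adjusted p = 0.025) with copies. Disc1, a scaffold protein with a known frameshift deletion in 129, lay between 0.109 and 0.43 CPM in 129 (median 0.233), against 0.149 to 1.23 CPM in B6 (median 0.607), at -1.32 ± 0.34 (SE, adjusted p = 0.0037), again with 129 the lowest. Ahr, the dioxin receptor, Apoa2, an apolipoprotein, Cox7a2l, a respiratory supercomplex factor, Nlrp12, Nlrp1b and the beta globins Hbb-bs and Hbb-bt were not called, with adjusted p between 0.072 and 0.97. Alleles that change a protein need not change its transcript level, and the alleles themselves were not read here.

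**Figure D5:**
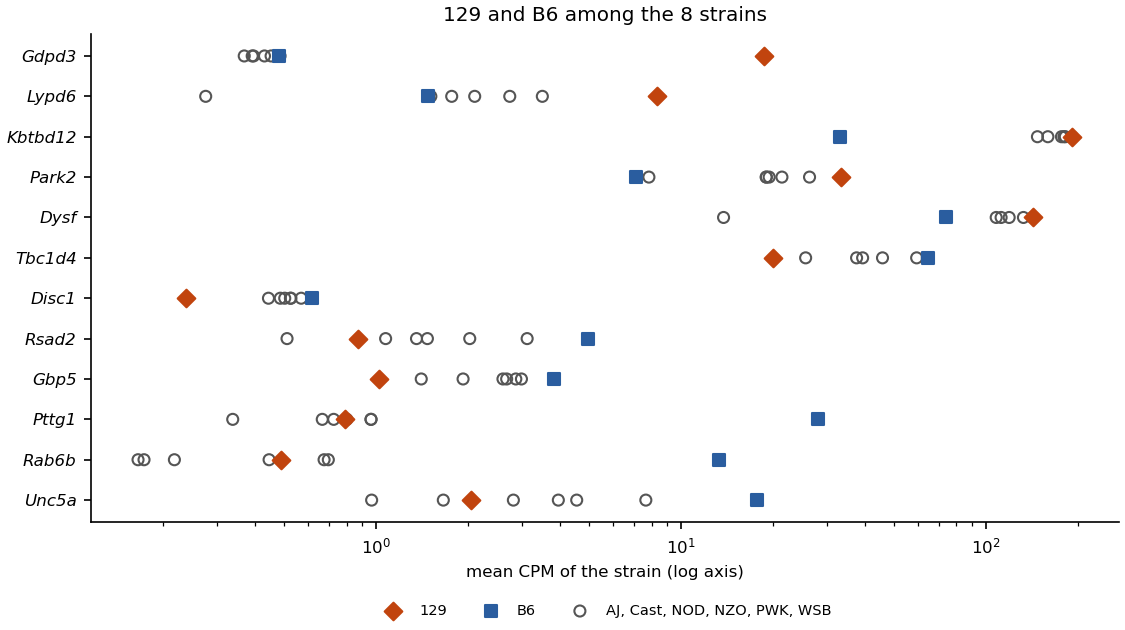
Mean CPM (log axis) of 12 genes in 129 (orange diamonds), B6 (blue squares) and the other 6 strains (open circles). Gdpd3 and Lypd6 were highest in 129, Pttg1, Rab6b and Unc5a were highest in B6, Kbtbd12 was lowest in B6, and for Disc1 and Gbp5 129 was the lowest and B6 the highest of the 8 strains. Tbc1d4 was lowest in 129, with B6 and the next strain close together at the top.

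Markers of other cell types differed in places. Of the smooth muscle and pericyte markers 4 of 10 were higher and 2 lower in 129 (40% and 20%, against 8.08% and 9% of all genes). Without the 3 outlying B6 libraries 0 and 2 were called (5.27% and 5.4% of all genes). The contractile markers Acta2 and Myh11 were higher, at 0.43 ± 0.13 (SE, adjusted p = 0.015) and 0.40 ± 0.12 (SE, adjusted p = 0.014), calls lost without those libraries (adjusted p = 0.089 and 0.16), and the pericyte markers Rgs5 and Kcnj8 were lower, at -0.33 ± 0.09 (SE, adjusted p = 0.0077) and -0.45 ± 0.11 (SE, adjusted p = 0.0015). Fibroblasts (10 markers), brown adipocytes (9), erythrocytes (6), hepatocytes (11) and keratinocytes (6) gave 0 calls. The keratinocyte markers summed to 2.39 to 28.6 CPM in 129, against 3.31 to 197 CPM in B6, and the hepatocyte markers to 39.4 to 2384 CPM, against 93.4 to 2584 CPM. All 10 white adipocyte markers had negative differences, with a median of -0.79, and summed to 230.3 to 470.2 CPM in 129, against 281 to 588 CPM in B6. Of 12 gene IDs for 11 macrophage markers 1 was lower, and of 10 endothelial markers 1, and without the 3 outlying B6 libraries 0 and 0. The macrophage call was Itgam (ENSMUSG00000108596), a symbol on more than 1 ID, at only 0 to 0.251 CPM in 129 and 0 to 0.819 CPM in B6. The part of these cells in the differences was not tested, beyond the fits without the B6 libraries named above and a fit with marker sums as covariates, which called 2513 genes.

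Called genes were spread over the genome unevenly. Among the autosomes and the X chromosome, the share of tested genes that were called ran from 9.52% on X, 10.6% on chromosome 16 and 12.1% on chromosome 10 to 23.4% on chromosome 14. Over 444 windows of 5 Mb with at least 10 tested genes, the median share was 16.7%, 18 windows had no called gene and 12 had at least 40%. The highest share was on chromosome 12 from 50 to 55 Mb, where 15 of 24 genes were called, 12 of them lower in 129. Without B6_5 that window had 8 calls. On chromosome 13 from 115 to 120 Mb, which holds Nnt, 10 of 17 genes were called, with and without B6_5. On chromosome 4 from 145 to 150 Mb it was 30 of 60, and 28 without B6_5. Neighbouring genes share haplotypes and, in places, reads, so these shares are descriptions without a test.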

How the data were processed

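Muscle RNA carrying polyA was made into libraries with the KAPA mRNA HyperPrep kit, per the labels' protocols. Per the file headers and values, the authors deposited a table of expected counts (80.4% of them whole) for 19462 genes, and a second table of variance-stabilised log2 values. GRCm38 and DESeq2 are named in the submitters' processing notes. Aligner, counter and strand setting: not given in the sources used here.

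For testing, expected counts were rounded. filterByExpr kept 16682 genes, TMM gave the scaling, and 1 model of strain over the 61 libraries (53 residual degrees of freedom) gave the contrast 129 minus B6, by the quasi-likelihood test of edgeR 4.0.16 under R 4.3.3, with Benjamini-Hochberg adjustment and a threshold of 0.05. An SE is |log2 difference| over the root of F. CPM use TMM-adjusted totals. The totals of 19.2 to 46.1 M counts set the precision. In all, 28 alternative fits were run, with limma 3.58.1 and DESeq2 1.42.0 among them. BLAST 2.17.0 found near-identical copies among GENCODE M21 transcripts (at least 95% identity, 200 bases and 50% of the shorter transcript). The model was also run on simulated counts, with an outcome not given here.

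Members, lists (36 of genes, 14 of markers) and tests were chosen with earlier results of these data known. Named genes are the 12 highest and 12 lowest called genes of at least 5 CPM in the higher strain without a copy, the 4 highest and 4 lowest with one, the 6 largest CPM differences per direction among genes of at least 200 CPM, the tested known alleles, and up to 3 called members per direction of each list described. Some genes chosen by these rules are not reported here. Fits without B6_1 and B6_6, with and without B6_5, were added after seeing the data.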

Additional observations from a re-analysis of the deposited data

Results flagged for a closer look

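For each named gene the 8 libraries of 129 and the 8 of B6 were searched for a library far from the others of its strain by Dixon's ratio on log2(CPM + 0.5), at its 95% critical value for 8 libraries. Of 296 such groups 33 had one. Chance alone gives about 1 in 20 only for groups picked without regard to their values. Genes here were named by their differences, some of which rested on 1 library, so that rate is no measure for them. B6_5 accounted for 17 of the 33. It lay above the other B6 libraries in CPM for Lars2 at 164394, Park2 at 11.4, Rmrp at 60.7, Rn7s1 at 845, Rpph1 at 40.2, Rsad2 at 7.78, Wdfy1 at 12.2, mt-Rnr1 at 68473 and mt-Rnr2 at 86982. It lay below them for Anxa6 at 124, Cox4i1 at 233, Idh3b at 179, Ndufs5 at 38.1, Psma7 at 33.9, Rpl18 at 52.4, Tpm2 at 1952 and Uqcrfs1 at 204.

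The other flagged libraries, with CPM, were as follows. In 129_7 the gene levels that stood apart were Cd8a at 0.14, Dnajb1 at 136 and Hspa1a at 465, the last 2 of which carry the heat shock calls given above. In 129_4 the globins stood apart, with Hbb-bs at 288 and Hbb-bt at 24.7. The library 129_2 was low for Cox7a2l at 66.9 and Rab6b at 0.234. The library 129_8 was high for Gvin1 at 1.37 and Ighg2b at 0.0319, and 129_9 for Itgam (ENSMUSG00000108596) at 0.251. In B6_1 the antibody genes Ighg2b at 47.7 and Ighg2c at 48.1 stood apart. B6_3 had Hddc3 at 0.974 and Nnt at 71.1, the first below and the second above the rest of B6. B6_6 had Dgat2 at 87.5 and Kcnj12 at 32.5, the first above and the second below the rest.

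Xist was also apart in a way the strain comparison does not use: B6_5 and B6_6, both high in Ddx3y, had 23.6 and 30.9 CPM of Xist, while the 4 Ddx3y-high libraries of 129 had at most 3.09 CPM.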

How the results depend on the processing

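Leaving out 1 library at a time gave 2432 to 2939 called genes, 1168 to 1360 higher and 1264 to 1579 lower, against 2849, 1348 and 1501. Counts moved by over 1.5 times in 2 settings: with at least 10 CPM in at least 7 libraries, which left 8161 genes to test, 1449 were called (762 higher, 687 lower), and without B6_1, B6_5 and B6_6 1805 (892 higher, 913 lower). The 16 libraries alone gave 2571, DESeq2's Wald test 3145 (1416 higher, 1729 lower) and limma on the deposited variance-stabilised values 2685 (1377 higher, 1308 lower). Of 141 named genes called, 79 kept the call in each of the 28 fits that tested them and 62 lost it in at least 1.

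With the number in the title as a replicate block, 2735 genes were called (1376 higher, 1359 lower). The deviations of same-numbered 129 and B6 libraries correlated by -0.42 to 0.55 over 7 shared numbers, and only number 2 matched its own number best, so the numbers were not taken as pairs.

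Directions turned for the following log2 differences. For Rpph1 they were 0.56 in DESeq2's test, 0.58 without B6_5 and 0.43 without B6_1, B6_5 and B6_6, and for Lars2 0.043, 0.067 and 0.15; leaving out 1 library gave -4.06 to 0.58 and -2.64 to 0.067. With copies added they were -0.18 for Rnaset2a and 0.37 for Hbb-bt. Of genes never called, Ahr was at 0.11 with marker sums, 0.060 without B6_1 and B6_6 and 0.16 without B6_5 as well, with -0.13 to 0.072 on leaving out 1 library. Apoa2 was at 0.34 and 0.43 without those libraries, with -0.77 to 0.30 on leaving out 1. Nlrp12 was at 0.16 with the second running number of the titles as covariate, 0.12 with marker sums and 0.065 and 0.038 without those libraries, with -0.45 to 0.51 on leaving out 1. Beyond leaving out B6_5 for Rpph1 and Lars2 and adding the copies, the cause was not tested. With marker sums as covariates 26 of the 141 calls were lost, among them Col1a1, Col1a2, Slc2a4, Mtor, Fhl1, Pde4dip, Gbe1, Pygb, Dgat2, Kcnj12, Atp5b, Uqcrfs1, Ighg2b, Ighd and Igkc. At 19.2 to 46.1 M counts per library, genes under 1 CPM such as Disc1 and Naip5 rest on few counts.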
